A study of Manis javanica with 3 samples.

Results

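The genes described here code for transporters that carry amino acids and short peptides across cell membranes, and their levels were read in 3 RNA libraries of the Malayan pangolin (Manis javanica). A gene was a member when the symbol in its Swiss-Prot entry began with SLC1A, SLC3A, SLC6A, SLC7A, SLC15A, SLC36A, SLC38A or SLC43A. The rule found 64 genes in the annotation, and 62 of them were among the 24220 genes of the expression tables. The other 2, an SLC1A5 gene (gene17152) and the SLC15A2 gene (gene1683), have no value in those tables.

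All RNA came from 1 wild adult female that died of natural causes during rescue and was dissected right away. Liver, salivary glands and small intestine gave 1 library each, so no difference between tissues has a replicate check and no p-value is given. What belongs to a tissue and what to this animal's state at death cannot be told apart. Fragments on genes totalled 10158924 (small intestine), 8318686 (salivary glands) and 14568778 (liver), and values below follow this order unless said otherwise.

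Amino acids are charged or polar at body pH and cross membranes only through carriers. Some carriers are driven by sodium or protons and can concentrate their substrate in the cell (SLC1, SLC6, SLC15, SLC36 and SLC38), while others exchange one amino acid for another or let it flow downhill (SLC7 and SLC43). In the gut, carriers of the brush border take up the products of protein digestion, and in the liver they bring in amino acids for protein, glucose and urea synthesis.

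The label of the small intestine library was checked first, since the absorptive members depend on it. Lactase (LCT) and the fatty acid binding proteins FABP1 and FABP2 had 0 fragments in it, and sucrase-isomaltase (SI) had 2. The 12 enterocyte marker genes had a median FPKM (fragments scaled by transcript length and by the library's mapped fragments) of 0.122, with 4 genes at 0, a range up to 24.0 for villin (VIL1) and a sum of 28.9. Of the 13 gastric marker genes, 10 exceeded an FPKM of 1, the median was 652, and pepsin A (PGA) reached 94138. The smooth muscle markers had a median of 337 there, against 32.4 (salivary glands) and 1.61 (liver). The data thus went against enterocytes as the main content, and this RNA is called the library labelled small intestine below. The part of gastric or muscle cells in any result was not tested. In the liver library all 13 hepatocyte marker genes exceeded an FPKM of 1, with a median of 434.

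Most members were silent or low, and a few carried the bulk of the signal. Of the 62 members, 10 had no fragment in any library: SLC6A13, SLC15A5, SLC38A5, SLC43A3, an SLC7A3-like gene, 3 of 4 gene models of SLC1A5 and 2 of 3 of SLC6A20. A further 8 stayed under 10 fragments everywhere, which leaves 44 members with at least 10 fragments in 1 library or more. An FPKM above 1, the threshold for expression used here, was reached by 23 members (37.1%) in the library labelled small intestine and by 27 (43.5%) in each of the others. Across all genes of the tables the shares were 59.4%, 56.3% and 57.0%, in the same order. Members above an FPKM of 1 in all 3 libraries numbered 17, and 33 were above it in at least 1.

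The liver library held the largest total. The FPKM of the members summed to 470 in the library labelled small intestine, 490 in the salivary glands and 1778 in the liver, or 0.0657%, 0.0821% and 0.285% of all FPKM. Among the 33 members above an FPKM of 1, the highest value lay in the liver for 18, in the salivary glands for 10 and in the library labelled small intestine for 5. A member enters such a count, here and by family below, through the library where it is high. The same split over all genes is not given here. In tissue RNA, fewer cells of a type and less RNA per cell cannot be told apart.

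**Figure D1:**
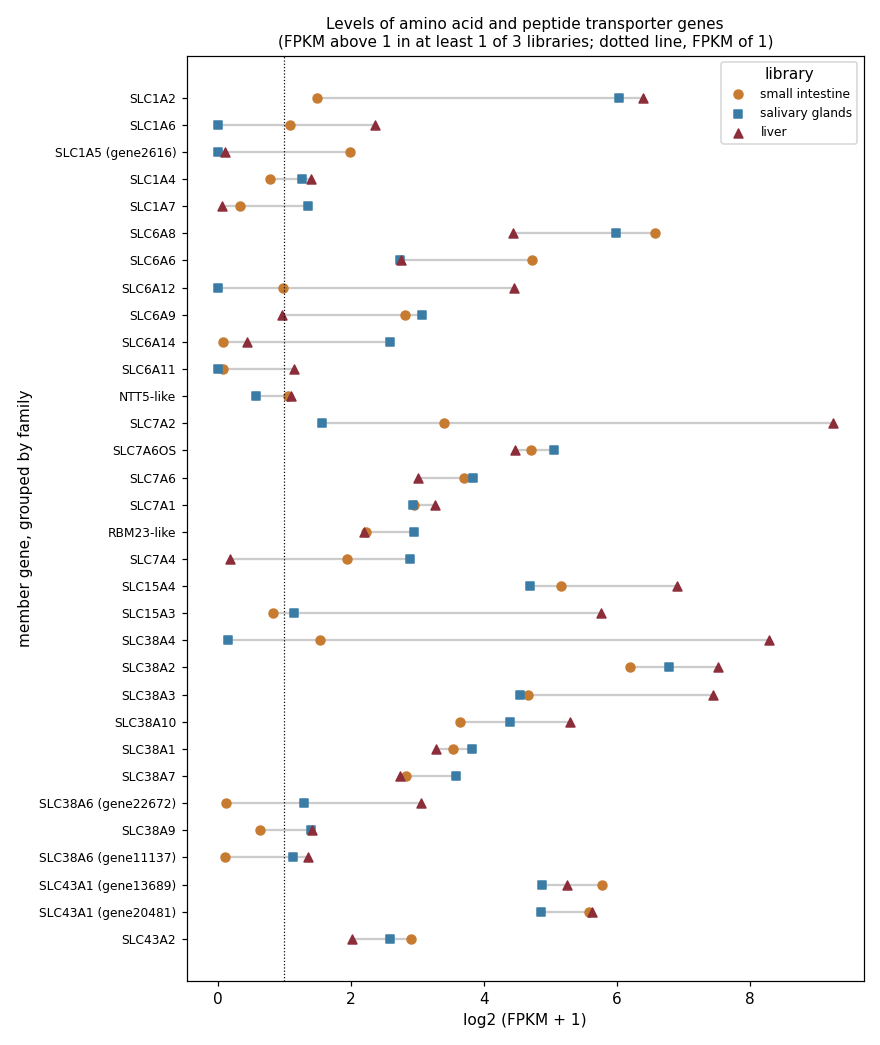
Level of the members reported here that exceeded an FPKM of 1 somewhere, on a log2 (FPKM + 1) axis, with circles for the library labelled small intestine, squares for salivary glands and triangles for liver, 1 library each. The liver triangles of SLC7A2 (FPKM of 605) and SLC38A4 (312) lie farthest to the right, while SLC7A1 and SLC43A1 have all 3 points close together.

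Grouped by family, the liver excess lay in SLC7A and SLC38A. The 10 SLC7A members summed to an FPKM of 60.4 in the library labelled small intestine, 68.4 in the salivary glands and 646 in the liver, and SLC7A2 alone made up 93.7% of the liver sum. Without 2 members that are no transporters by product name (SLC7A6OS and newGene_4445), the sums were 31.6, 29.3 and 621, and with the SLC7A genes found by KEGG symbol added to all 10 they were 151, 121 and 656. The 12 SLC38A members summed to 128, 180 and 731, in the same order. SLC15A, with 4 members, summed to 36.3, 26.01 and 172. The 22 members of SLC6A summed to 131, 87.0 and 52.1, and SLC6A8 alone gave 71.8% of the first 2 sums. Of the 8 SLC6A members above an FPKM of 1, 2 were highest in the library labelled small intestine, 3 in the salivary glands and 3 in the liver. The 4 members of SLC43A had sums of 107, 61.1 and 88.5, which lie closer together. The 10 SLC1A members summed to 7.48, 67.5 and 89.1, nearly all of it from SLC1A2 in the salivary glands and the liver.

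**Figure D2:**
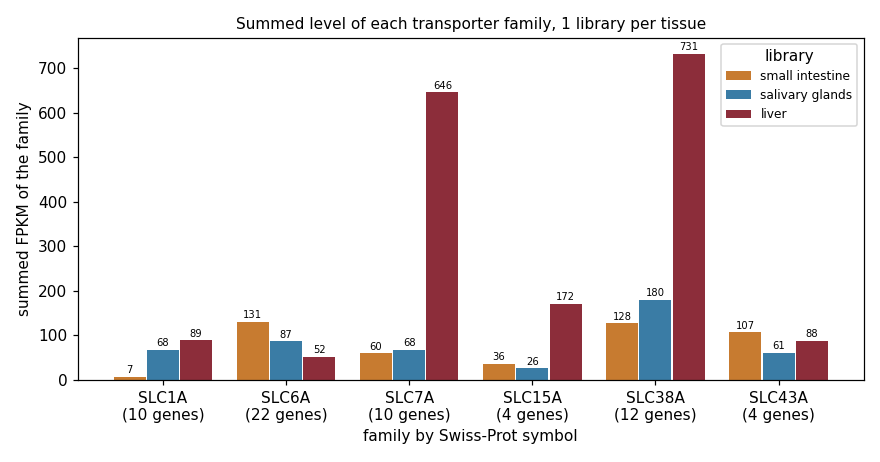
Summed FPKM of the members of each family, with 1 bar per library from an axis that starts at 0; no error bars are drawn, since each tissue has 1 library. The SLC38A and SLC7A bars of the liver (731 and 646) stand far above the other bars, and SLC6A is highest in the library labelled small intestine (131).

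Ratios between libraries were taken from counts scaled by TMM, which sets a common scale over all genes. A member was called higher in 1 library when the ratio was at least 2 and at least 1 of the 2 libraries held 10 fragments. Intervals given with a ratio are exact 95% intervals for 2 Poisson counts and cover counting error only, since fragments copied in PCR are not independent molecules. A count of 0 was set to a floor of 3 fragments, so that a fold against it is a lower bound. The floor of 3 fragments is 0.295, 0.361 and 0.206 CPM in the order given above.

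Between the library labelled small intestine and liver, 41 members could be compared and 31 (75.6%) were called, against 48.3% of all genes. They were higher in the library labelled small intestine for 13 members (background 24.2%) and higher in the liver for 18 (background 24.0%). The median log2 ratio of the members was -0.19, beside -0.08 over all genes. Between the library labelled small intestine and salivary glands, 24 of 40 members (background 37.6%) were called, 13 higher in the former (background 20.6%) and 11 in the salivary glands (background 16.9%). The medians were -0.04 for the members and -0.02 for all genes. Between salivary glands and liver, 23 of 39 members (background 47.9%) were called, with 11 higher in the salivary glands (background 22.9%) and 12 in the liver (background 24.9%). Here the medians were -0.26 and -0.07.

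The choice of scale mattered most for the comparison of gut and salivary library. With library size alone, the median log2 ratio of all genes moved from -0.02 to -0.47, the share of calls of all genes that were higher in the library labelled small intestine went from 54.9% to 35.7%, and the members split 12 to 15 in place of 13 to 11. In the other comparisons the medians moved to -0.32 (small intestine over liver) and 0.15 (salivary glands over liver). A change of scaling shifts all ratios of a comparison by the same amount, and the largest shift in log2 was -0.457. A member called at 2-fold could therefore not change direction between these scalings.

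**Figure D3:**
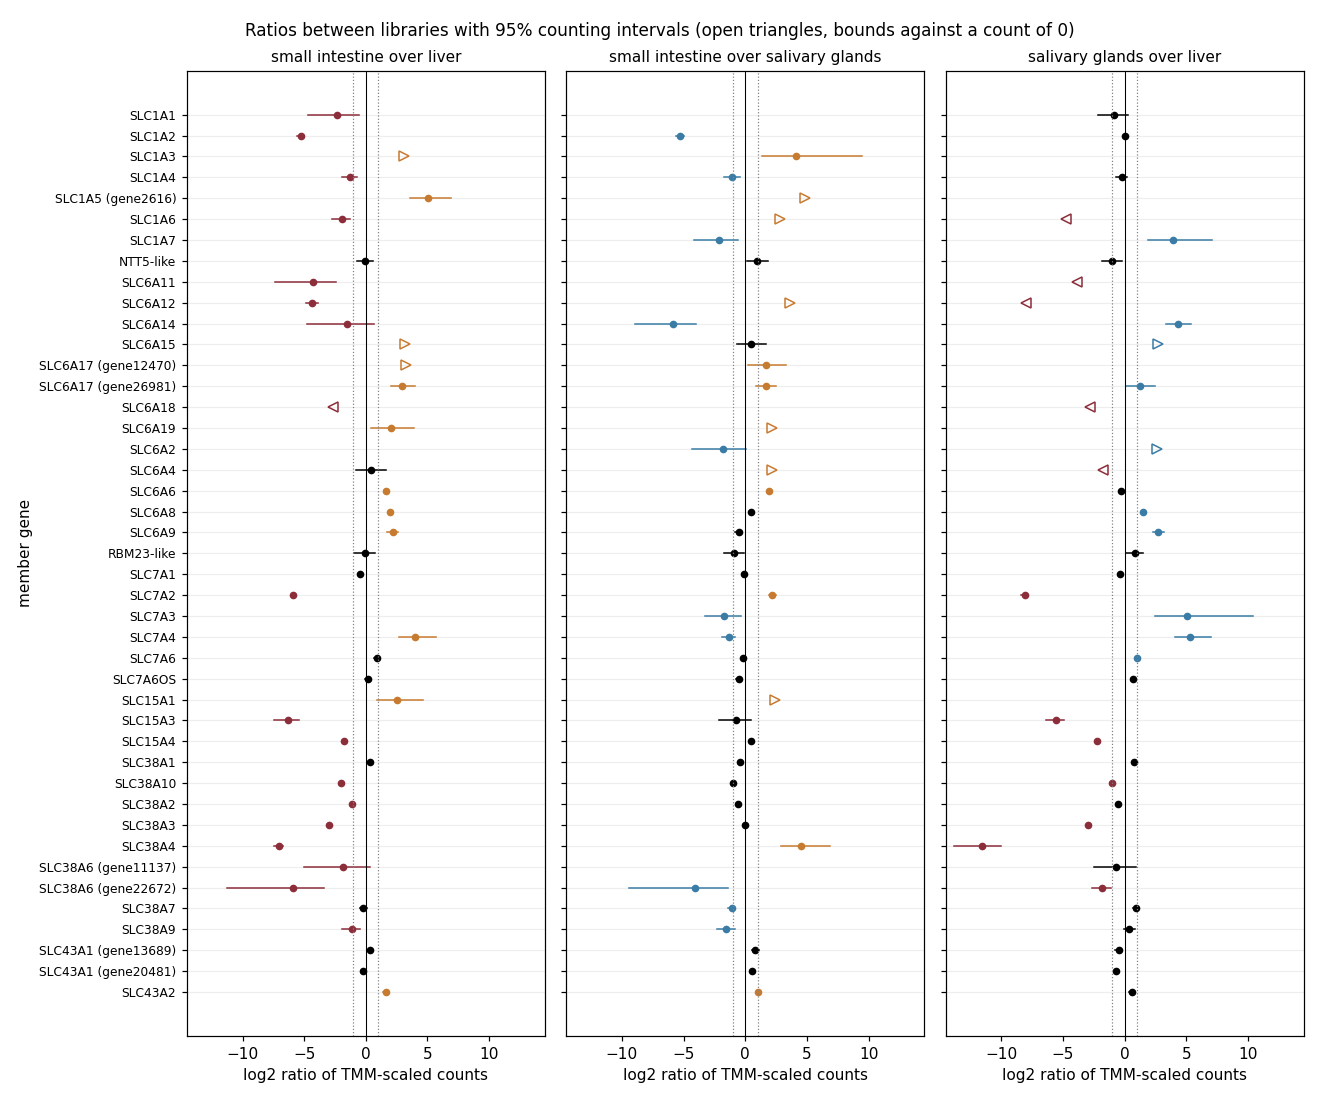
Log2 ratio of TMM-scaled counts for the members reported here with at least 10 fragments in 1 library, in 3 panels, 1 for each pair of libraries; points are ratios, bars their 95% counting intervals, open triangles bounds against a count of 0, and dotted lines a 2-fold difference. Coloured points, named after the higher library, are at least 2-fold apart, and the leftmost point of the right panel is SLC38A4, 3073-fold higher in the liver than in the salivary glands.

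Sodium-coupled neutral amino acid transporters of the SLC38 family move glutamine, alanine and other small neutral amino acids, and 3 of them were among the 5 highest members of the liver. SLC38A4 (gene1122, NW_016527860.1, 9334 to 73706, minus strand), a system A carrier known from the liver, had 61 fragments in the library labelled small intestine, 3 in the salivary glands and 13881 in the liver. Its FPKM was 1.91, 0.112 and 312, which placed it 206th of all genes in the liver. The liver stood 134-fold above the library labelled small intestine (interval 105 to 176) and 3073-fold above the salivary glands (interval 1051 to 14904). SLC38A3 (gene14186), the system N carrier of glutamine and histidine, had FPKM values of 24.3, 22.4 and 173 from 613, 685 and 8133 fragments. It was 7.84-fold higher in the liver than in the library labelled small intestine (7.22 to 8.52) and 7.89-fold higher than in the salivary glands (7.29 to 8.54), and the latter 2 libraries lay level at a ratio of 1.01 (0.901 to 1.12).

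SLC38A2 (gene19895), the widespread system A carrier that cells raise when amino acids run short, was high in every library. Its FPKM was 72.4 in the library labelled small intestine, 109 in the salivary glands, where it led the members, and 183 in the liver, from 2398, 4019 and 8746 fragments. The liver was 2.15-fold above the library labelled small intestine (2.06 to 2.26), while the other 2 ratios stayed under 2 by TMM (with library size, 2.05 for salivary glands over small intestine). SLC38A1 (gene19894), its neighbour on scaffold NW_016546240.1 and also a system A carrier, differed far less, with an FPKM of 10.7, 13.1 and 8.71. The 3 carriers SLC38A2, SLC38A3 and SLC38A4 together made up 21.0% of the members' FPKM in the library labelled small intestine, 26.9% in the salivary glands and 37.6% in the liver.

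Of the SLC38 members with less settled roles, SLC38A10 (gene23324) had an FPKM of 11.5, 19.9 and 38.2. It was 4.09-fold higher in the liver than in the library labelled small intestine (3.72 to 4.51), and only 2.05-fold above the salivary glands (1.91 to 2.19), a call that is lost with library size or upper quartile scaling and by the FPKM ratio. SLC38A7 (gene266), a lysosomal glutamine carrier, was highest in the salivary glands, with an FPKM of 6.14, 10.99 and 5.69. SLC38A9 (gene15014), the lysosomal arginine sensor upstream of mTORC1, was low throughout, with 22, 72 and 83 fragments and an FPKM of 0.546, 1.64 and 1.68. SLC38A6 was split over 3 gene models, of which gene22672 had 1, 19 and 103 fragments and was 3.60-fold higher in the liver than in the salivary glands (2.19 to 6.22). SLC38A8 and SLC38A11 had at most 5 fragments in any library.

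SLC7A1 to SLC7A4 are single-chain carriers of the SLC7 family, of which the first 3 bring arginine, lysine and ornithine into cells. SLC7A2 (gene5457, NW_016530357.1, 478493 to 532089, plus strand), the low-affinity carrier that the liver is known to use, had 463 fragments in the library labelled small intestine, 113 in the salivary glands and 47288 in the liver. With an FPKM of 9.54, 1.96 and 605, it was 100th of all genes in the liver and held 34.02% of the members' FPKM there. The liver was 60.3-fold higher than the library labelled small intestine (55.1 to 66.3) and 278-fold higher than the salivary glands (231 to 337). The library labelled small intestine was in turn 4.61-fold above the salivary glands (3.74 to 5.71). SLC7A2 and SLC38A4 together held 51.5% of the members' FPKM in the liver, against 2.44% and 0.422% in the library labelled small intestine and the salivary glands.

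SLC7A1 (gene25483), the high-affinity cationic carrier of most other tissues, was close to level. Its FPKM was 6.76, 6.66 and 8.58, and no pair of libraries differed by more than 1.36-fold. SLC7A4 (gene19738), whose substrate is not settled, ran against SLC7A2, with an FPKM of 2.85 in the library labelled small intestine, 6.44 in the salivary glands and 0.130 in the liver. From 47, 134 and 5 fragments it was 40.4-fold higher in the salivary glands than in the liver (16.9 to 126) and 15.9-fold higher in the library labelled small intestine (6.36 to 51.3). SLC7A3 and SLC7A14 did not exceed 22 fragments in any library, and an SLC7A3-like gene (gene8608) had none.

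Members of the SLC1 family take up glutamate and aspartate (the excitatory amino acid transporters) or neutral amino acids (SLC1A4 and SLC1A5), driven by sodium. SLC1A2 (gene15678, NW_016539391.1, 158855 to 304438, plus strand), best known as the glutamate carrier of astrocytes and also present in liver, had 97 fragments in the library labelled small intestine, 4263 in the salivary glands and 6314 in the liver. Its FPKM was 1.80, 64.3 and 82.6. It was 39.1-fold higher in the salivary glands (32.0 to 48.3) and 38.5-fold higher in the liver (31.5 to 47.5) than in the library labelled small intestine. Between salivary glands and liver the ratio of scaled counts was 1.02 (0.978 to 1.06), while the ratio of the deposited FPKM was 0.778. Of 9 neural marker genes, 7, 3 and 2 exceeded an FPKM of 1, with sums of 29.5, 12.5 and 86.5. The liver sum came mostly from UCHL1, with an FPKM of 9.13, 4.86 and 51.8, which was 6.35-fold and 9.67-fold higher in the liver than in the first 2 libraries, and from gene11739 (7.79, 6.03 and 33.4), which carries the SNAP25 symbol but is SNAP23 by product name. The neuronal ELAVL4 and tubulin beta-3 (TUBB3, gene10061) had 0 fragments in both salivary glands and liver. The part of neural cells in the SLC1A2 result was not tested.

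The other SLC1 members were low. SLC1A5 (gene2616), the glutamine carrier of dividing cells, had 77, 0 and 4 fragments and reached an FPKM of 2.98 in the library labelled small intestine. There it was at least 28.9-fold higher than in the salivary glands and 32.6-fold higher than in the liver (12.2 to 123). SLC1A4 (gene24783), the alanine, serine and cysteine carrier, had an FPKM of 0.732, 1.41 and 1.64. SLC1A1 (gene3966), the glutamate carrier of intestinal and kidney brush borders, had 3, 9 and 25 fragments and an FPKM no higher than 0.565. SLC1A6 (gene19191) had 19, 0 and 125 fragments and was at least 27.7-fold higher in the liver than in the salivary glands. SLC1A7 (gene20048) had 4, 20 and 2 fragments, and SLC1A3 (gene7922) had 15, 1 and 0.

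The SLC15 family carries dipeptides and tripeptides with protons, SLC15A1 and SLC15A2 at the cell surface and SLC15A3 and SLC15A4 in endosomes and lysosomes, where they also move histidine. SLC15A4 (gene12029) was expressed in every library, with an FPKM of 34.9 in the library labelled small intestine, 24.8 in the salivary glands and 118 in the liver. From 696, 557 and 4060 fragments, the liver was 3.45-fold (3.18 to 3.74) and 4.84-fold (4.43 to 5.30) higher than these 2. SLC15A3 (gene19228) had 9, 17 and 1232 fragments and an FPKM of 0.775, 1.20 and 53.2. It was 80.9-fold higher in the liver than in the library labelled small intestine (42.5 to 177) and 48.1-fold higher than in the salivary glands (29.9 to 82.9).

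SLC15A3 is known from macrophages, and the macrophage and hepatocyte marker lists are set beside it here. Of 8 macrophage marker genes, 7 were called higher in the liver than in each other library (background 24.0% and 24.9%). Against this, 1 was called higher in the library labelled small intestine than in the liver. The summed FPKM of the 8 genes was 64.4 in the library labelled small intestine, 65.5 in the salivary glands and 815 in the liver. None of them was at 0 in the liver, and MARCO was at 0 in the library labelled small intestine. The hemoglobin chaperone AHSP and the other 4 erythroid markers stayed low in the liver, with a sum of 2.41. Of the 13 hepatocyte marker genes, 12 were likewise called higher in the liver than in each other library. The part of macrophages or hepatocytes in the SLC15A3 result was not tested.

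SLC6 carriers use sodium and chloride, and the family also holds the carriers of neurotransmitters. SLC6A8 (gene13784, NW_016537329.1, 212241 to 219049, minus strand), the creatine transporter, led the members in the library labelled small intestine. Its FPKM was 94.0 there, 62.5 in the salivary glands and 20.8 in the liver, from 2526, 2080 and 1090 fragments. It was 3.92-fold (3.65 to 4.22) and 2.87-fold (2.67 to 3.09) higher in these 2 libraries than in the liver. The ratio of the library labelled small intestine over the salivary glands was 1.37 (1.29 to 1.45) by TMM and 0.994 with library size scaling. SLC6A6 (gene18455), the taurine transporter, had an FPKM of 25.5, 5.69 and 5.74 and was higher in the library labelled small intestine, 3.19-fold over the liver (2.89 to 3.54) and 3.83-fold over the salivary glands (3.38 to 4.34). It shares 4947 bases with a new gene on the opposite strand that had 695, 241 and 362 fragments, and the libraries do not mark strand, so reads of the pair cannot be told apart. Muscle is known to take up creatine and taurine. Of 9 smooth muscle marker genes, 6 were higher in the library labelled small intestine than in the liver (background 24.2%). In the same comparison 1 was lower (background 24.0%), and 2 of the 9 had no fragment in the library labelled small intestine. The summed FPKM of the 9 genes was 3519 there and 50.8 in the liver (402 in the salivary glands). Of 13 gastric marker genes, 10 were higher in the library labelled small intestine than in the liver and 0 lower (same backgrounds). The part of muscle or gastric cells in the SLC6A8 and SLC6A6 results was not tested.

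SLC6A12 (gene10750), the carrier of betaine and GABA, was a liver gene here. It had 33, 0 and 1134 fragments and an FPKM of 0.974, 0 and 21.0. The liver was 20.3-fold higher than the library labelled small intestine (14.4 to 29.6) and at least 251-fold higher than the salivary glands. Its neighbour SLC6A13 (gene10749), the GABA and taurine carrier, had 0 fragments in all 3 libraries. SLC6A11 (gene19153), a further GABA carrier, had 2, 0 and 67 fragments and was 19.8-fold higher in the liver than in the library labelled small intestine (5.27 to 167).

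SLC6A14 (gene5791), which takes up neutral and basic amino acids with a steep driving force in several mucosae and glands, was highest in the salivary glands. It had 2, 131 and 10 fragments and an FPKM of 0.0538, 5.02 and 0.360. The salivary glands were 58.3-fold higher than the library labelled small intestine (15.8 to 486) and 19.7-fold higher than the liver (10.4 to 42.1). SLC6A9 (gene15628), a glycine carrier, had an FPKM of 6.04, 7.39 and 0.960, and was 6.57-fold higher in the salivary glands than in the liver (4.92 to 8.89). SLC6A17, a vesicular carrier of neutral amino acids in neurons, had 54, 19 and 12 fragments on 1 of its 2 gene models (gene26981) and 17, 6 and 0 on the other (gene12470). SLC6A15 (gene25512), a neutral amino acid carrier best known from brain, had 16, 13 and 0 fragments, and an orphan NTT5-like gene (gene11876) had 33, 19 and 57. The carriers of noradrenaline (SLC6A2), dopamine (SLC6A3), serotonin (SLC6A4), glycine (SLC6A5) and proline (SLC6A7) did not exceed 15 fragments in any library.

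SLC43 members are uniporters through which large neutral amino acids such as leucine leave or enter cells. SLC43A1 was listed as a pair of gene models, both above an FPKM of 27 in every library. The model gene13689 had an FPKM of 53.6, 28.2 and 37.2 from 280, 180 and 384 fragments, and gene20481 an FPKM of 46.9, 28.0 and 48.2 from 997, 784 and 1924 fragments. Neither model was called in any comparison, and the largest ratio between libraries was 1.75. SLC43A2 (gene6603) had an FPKM of 6.45, 5.002 and 3.07 and was 3.06-fold higher in the library labelled small intestine than in the liver (2.68 to 3.49). Its 2.08-fold excess over the salivary glands (1.83 to 2.38) fell under 2 with library size scaling and by the FPKM ratio. SLC43A3 (gene20479) lies on the same scaffold as gene20481, and had no fragment in any library.

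The carriers through which brush borders absorb amino acids and peptides gave 14 gene models once genes found through KEGG symbols are included. Of these, 2 exceeded an FPKM of 1 in each library (background 59.4%, 56.3% and 57.0%). The models include 3 of SLC6A20 and 2 each of SLC3A1 and SLC7A13, each of which is 1 gene in RefSeq. SLC15A1 (gene9070, NW_016533287.1, 3145 to 31541, plus strand), the peptide transporter of the small intestine, had 14 fragments in the library labelled small intestine, 0 in the salivary glands and 4 in the liver, with an FPKM of 0.623, 0 and 0.115. SLC6A19 (gene19409), the main carrier of neutral amino acids in the gut, had 12, 0 and 5 fragments and an FPKM of 0.677, 0 and 0.136. Its neighbour SLC6A18 (gene19408) had 0, 0 and 32. SLC6A20, the proline and imino acid carrier, had 1 fragment in all, on 1 of its 3 gene models. Both SLC15A1 and SLC6A19 were called higher in the library labelled small intestine than in the liver, 5.92-fold (1.86 to 24.7) and 4.06-fold (1.33 to 14.7), at levels under an FPKM of 1.

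The models above an FPKM of 1 were the proton-coupled SLC36A1 and the KEGG-named heavy chain SLC3A1 (gene9245), the latter with 1.39, 1.88 and 2.65. Without SLC36A1, the fragments on the remaining brush border models summed to 69 in the library labelled small intestine, 34 in the salivary glands and 113 in the liver. The 9 peptidases and related proteins of the brush border looked for by symbol gave 14 genes, of which 3, 1 and 4 exceeded an FPKM of 1. Aminopeptidase N (ANPEP) had an FPKM of 0.758, 0.0468 and 2.51 and dipeptidyl peptidase 4 (DPP4) one of 3.06, 0.282 and 2.63. The meprins MEP1A and MEP1B and the enteropeptidase gene (gene6436) had no fragment in any library. The highest gene of the list (gene4680, FPKM of 41.7, 24.2 and 4.204) carries the TMPRSS15 symbol but is transmembrane protease serine 2 by product name. It is in each of the counts above an FPKM of 1, and in the salivary glands it is the only gene counted. Further genes with that symbol, all under an FPKM of 1, also have other product names.

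**Figure D4:**
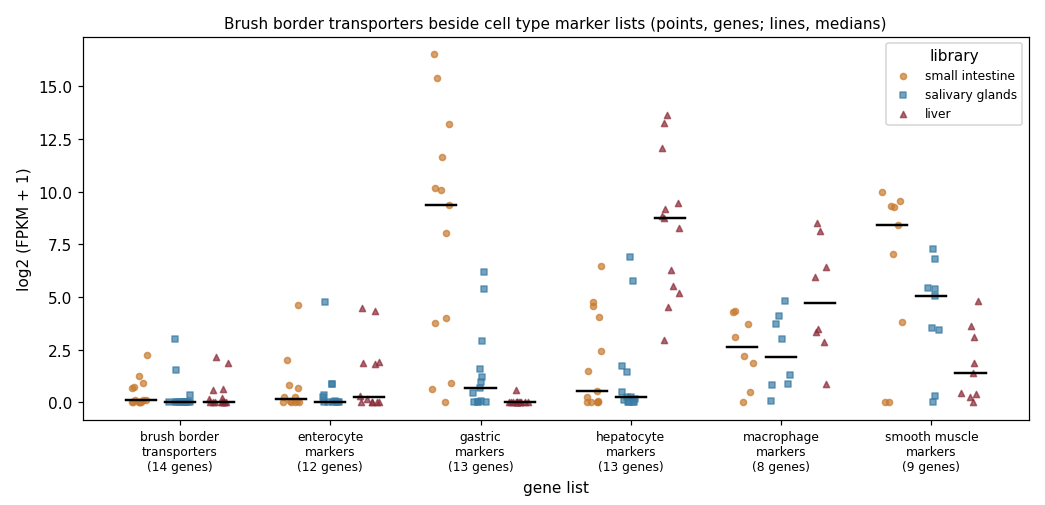
Level of each gene as log2 (FPKM + 1) for 14 brush border carriers and 5 marker lists, with colours and symbols for the 3 libraries and black lines at the medians. Brush border carriers and enterocyte markers lie near 0 in every library, whereas gastric and smooth muscle markers are high in the library labelled small intestine and hepatocyte and macrophage markers in the liver.

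The rule missed members of these families whose Swiss-Prot entry carries no gene symbol. A search by KEGG symbol found 15 of them, 7 above an FPKM of 1 in each library, with summed FPKM of 207, 251 and 146. They include all SLC3A and SLC36A genes found and the light chains of heteromeric carriers. In such a carrier, a heavy chain (SLC3A1 or SLC3A2) brings a light chain of the SLC7 family to the membrane, and the light chain does the transport.

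SLC3A2 (gene8892), the heavy chain of most tissues, had an FPKM of 105 in the library labelled small intestine, 186 in the salivary glands and 121 in the liver. From 1667, 3659 and 3865 fragments, no pair of libraries was 2-fold apart by TMM, but the salivary glands were 1.95-fold above the library labelled small intestine (1.84 to 2.07) and 2.68-fold with library size scaling. Among its light chains, the largest difference from the liver was that of SLC7A8. SLC7A8 (gene11606), the basolateral exchanger of neutral amino acids, had an FPKM of 69.7, 34.3 and 1.21 and counts of 1796, 1152 and 83. It was 36.6-fold (29.4 to 46.2) and 20.9-fold (16.7 to 26.4) higher in the library labelled small intestine and in the salivary glands than in the liver. SLC7A5 (gene1742), the exchanger of leucine and other large neutral amino acids, had an FPKM of 14.0, 2.94 and 3.79. The library labelled small intestine was 3.05-fold above the liver (2.63 to 3.54) and 4.26-fold above the salivary glands (3.52 to 5.20).

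SLC7A7 (gene24827) and SLC7A6 (gene13955) export cationic amino acids in exchange for neutral ones. SLC7A7 had an FPKM of 6.99, 15.1 and 4.96 and was highest in the salivary glands, 3.16-fold over the liver (2.46 to 4.08). SLC7A6, a member by the rule, had an FPKM of 11.96, 13.3 and 7.06, and was 2.04-fold higher in the salivary glands than in the liver (1.82 to 2.28), or 1.88-fold by the FPKM ratio. The cystine and glutamate exchanger SLC7A11 (gene2582), which supplies cysteine for glutathione, had 4, 2 and 8 fragments and an FPKM no higher than 0.236. The heavy chain SLC3A1 (gene9245), the partner of SLC7A9 in brush borders, had 17, 25 and 47 fragments, and its span overlaps PREPL on the opposite strand by 10991 bases. SLC7A9 (gene12779) had 1 fragment in all, in the library labelled small intestine, SLC7A10 had 1, 1 and 0, and a pair of SLC7A13 models had none. Summed over the KEGG-named SLC7A light chains, the liver held an FPKM of 9.97, against 90.8 and 52.4 in the other libraries. SLC7A8 alone made up 76.8% and 65.4% of the latter sums.

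**Figure D5:**
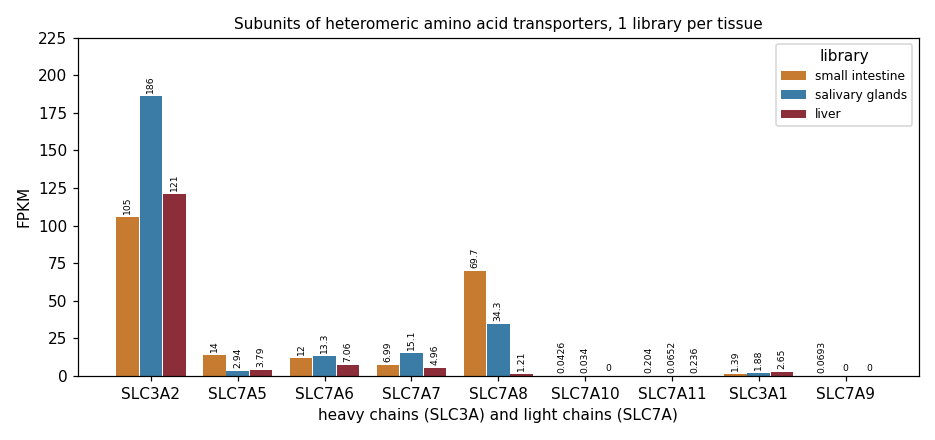
FPKM of the heavy chains SLC3A2 and SLC3A1 and of light chains of the SLC7 family, 1 bar per library from an axis that starts at 0, without error bars since each tissue has 1 library. SLC3A2 exceeds an FPKM of 100 in all 3 libraries, whereas SLC7A8 falls from 69.7 and 34.3 to 1.21 in the liver.

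Of the proton-coupled SLC36 family, SLC36A1 (gene25) had an FPKM of 3.80, 6.95 and 3.50 and SLC36A4 (gene1901) one of 4.18, 2.997 and 7.53. SLC36A1 was 2.01-fold (1.69 to 2.41) and 2.04-fold (1.76 to 2.37) higher in the salivary glands than in the library labelled small intestine and the liver, and both ratios fell under 2 by FPKM (1.83 and 1.99). SLC36A2 (gene24), which lies beside SLC36A1, had 21 fragments in the library labelled small intestine and 0 in the others, and SLC36A3 had 1, 0 and 0.

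Partner proteins of transport were looked up from a list of 14 symbols, 11 of them found. Above an FPKM of 1 were 5, 4 and 5 of the 11 genes in the 3 libraries. The sodium pump maintains the sodium gradient that SLC1, SLC6 and SLC38 carriers use. Its beta subunit ATP1B1 had an FPKM of 535, 160 and 32.5. The highest gene of the list in the liver was SLC16A10 (gene2278), which lets aromatic amino acids leave cells. It had an FPKM of 17.3, 18.8 and 285 from 672, 837 and 16769 fragments. Against the liver, 2 of the 11 genes were higher in the library labelled small intestine (background 24.2%) and 4 lower (background 24.0%).

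Genes of amino acid sensing were expressed nearly throughout, with 22, 22 and 21 of 23 genes above an FPKM of 1. Of the 23 genes, 6 were higher in the library labelled small intestine than in the liver (background 24.2%) and 1 lower (background 24.0%). In the salivary glands, 7 were higher than in the liver (background 22.9%) and 3 lower (background 24.9%). The highest values of the list were 48.5 for LAMTOR2 and 44.3 for LAMTOR5, subunits of the complex that anchors mTORC1 signalling at the lysosome, both in the salivary glands. The gene that was higher in the liver than in the library labelled small intestine was the leucine sensor SESN2, with an FPKM of 2.33, 2.96 and 13.9.

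ATF4 is the transcription factor that cells raise under amino acid shortage and other stress, and SLC7A11, SLC7A5, SLC3A2 and SLC38A2 are among its known targets. ATF4 itself had an FPKM of 305, 400 and 701. The list of ATF4 and further targets gave 21 genes, 10 of which share the VLDLR symbol and include paralogs. Of the 21 genes, 8 were higher in the liver than in the library labelled small intestine (background 24.0%) and 3 lower (background 24.2%). In the liver, 7 were higher than in the salivary glands (background 24.9%) and 5 lower (background 22.9%). Cystathionine gamma-lyase (CTH), which makes cysteine, had an FPKM of 22.9, 64.7 and 475, and the pseudokinase TRIB3 one of 6.51, 9.28 and 47.2. The asparagine synthetase ASNS was spread more evenly, with 19.7, 33.3 and 23.2, and the serine synthesis gene PSAT1 was lowest in the liver, with 8.39, 14.4 and 1.37. Against this, the transporter targets showed no common order, since SLC38A2 was highest in the liver, SLC7A5 in the library labelled small intestine, SLC3A2 in the salivary glands, and SLC7A11 was near 0 throughout.

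Glutathione synthesis genes numbered 8, with 6, 6 and 7 above an FPKM of 1. The regulatory subunit of glutamate-cysteine ligase (GCLM) had an FPKM of 3.05, 4.43 and 38.8, and NFE2L2, the factor that turns these genes on, one of 38.7, 31.2 and 38.1. In the liver library, the cysteine-making enzyme CTH and GCLM stood beside a cystine carrier SLC7A11 with 8 fragments.

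Not every member found by symbol is a transporter, and gene models do not always stand for one gene. SLC7A6OS (gene13954) is named for its position beside SLC7A6 and is by product name a nuclear localization protein of RNA polymerase II. It had an FPKM of 25.1, 32.3 and 21.1, and it shares 142 bases with SLC7A6 on the opposite strand. A new gene (newGene_4445), whose best product name is an RNA-binding protein, had an FPKM of 3.71, 6.74 and 3.59. The Swiss-Prot and KEGG symbols differed in 25 of the 57 members with both, as in SLC38A3, listed as SLC38A5 by Swiss-Prot, and members are named here by KEGG symbol or product.

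Compared with the names in a current RefSeq annotation of the species, several members had more models than genes. SLC1A5 had 4 models with values for 1 RefSeq gene, SLC6A20 3 for 1, SLC38A6 3 for 1 when the KEGG search is included, and SLC43A1 and SLC6A17 2 for 1. Reads of near-identical models could be split between them, so the levels of these genes are uncertain. SLC15A3 shares 83 bases with a gene on the opposite strand that had 743, 1605 and 2046 fragments, and the NTT5-like gene shares 1173 bases with CD37.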

How the data were processed

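Poly-T selected RNA of 3 tissues of 1 animal was sequenced with paired ends on an Illumina instrument. The authors aligned the reads with TopHat2 to the M. javanica genome, whose build is not named in the sources used here, as unstranded libraries, and added new genes with Cufflinks. The deposited counts are whole fragments per gene, not scaled. The deposited FPKM was made by the authors from fragments, transcript length and mapped fragments. Among members with 10 fragments it ranged from 0.634 to 3.68 times the count divided by length and library total (median 1.15). A further deposited score, the count scaled by the authors, enters no result. The deposited annotation covers 7 databases.

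Members were found by Swiss-Prot symbol and named by KEGG symbol, failing that by NR product. The members and gene lists were chosen with earlier results of these data known. Counts were scaled by TMM (edgeR 4.0.16, R 4.3.3), with factors of 0.851, 1.17 and 1.00 for small intestine, salivary glands and liver. Ratios, intervals and figures used Python 3.11.15, pandas 2.3.3, numpy 2.4.6, scipy 1.17.1 and matplotlib 3.10.9. With 1 library per tissue no test was run. The steps were tested on simulated counts in which few genes differed between libraries, unlike the real data. That test therefore does not check the scaling of these libraries. Alternatives were library size, upper quartile scaling, the FPKM ratio, a 4-fold threshold, no count minimum, intervals beyond 2-fold, members by KEGG symbol and other expression thresholds. TMM over 2 libraries only and leaving out the 2 members that are no transporters were added after the data were seen.

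Genes named are the 2 members of each family with the highest FPKM in each library where above 1, members with an FPKM of at least 10, members at least 8-fold apart with at least 100 fragments, a fixed list of members of known role, and the 2 highest genes of a list. Others, given with counts, were named after their values were seen. The remaining list results were these. Of 12 salivary gland symbols 4 were found, and 1, 2 and 2 of these genes exceeded an FPKM of 1 in small intestine, salivary glands and liver. For 10 pancreatic acinar genes the counts were 5, 2 and 3 and for 5 erythroid genes 1 each. Reference sequences of the members were not used here, and some genes of the rule and lists are not reported here.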

Additional observations from a re-analysis of the deposited data

How the results depend on the processing

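The count of members at least 2-fold apart between the library labelled small intestine and the salivary glands was the one that moved most. It was 24, and 14 with a 4-fold threshold (9 higher in the library labelled small intestine and 5 in the salivary glands) and also 14 when the whole counting interval had to lie beyond 2-fold (10 and 4), both stricter by construction. Over all alternatives the count was 21 to 35 for small intestine against liver (31 as reported) and 17 to 26 for salivary glands against liver (23). Members above the expression threshold were 16 to 34, 19 to 34 and 19 to 34 in small intestine, salivary glands and liver. The 2 members that are no transporters were not called by TMM in any comparison, so leaving them out could not change the 3 counts of calls. Of 103 ratios of 39 named genes, none that was called changed direction by the FPKM ratio, and a change of scaling could not reverse a call. With library size only, 55 moved beyond their counting interval, and with the FPKM ratio 28. Under library size scaling, SLC43A2 (small intestine against salivary glands) and SLC38A10 (salivary glands against liver) lost their calls, while SLC38A2, SLC15A3, SLC38A10 and newGene_4445 (small intestine against salivary glands) and SLC38A7 and newGene_4445 (salivary glands against liver) gained one. By the FPKM ratio, calls of SLC43A2, SLC1A4 and SLC38A7 (small intestine against salivary glands), SLC7A6 and SLC38A10 (salivary glands against liver) and SLC36A1 (both) fell under 2-fold. The FPKM ratio added calls for the NTT5-like gene and SLC7A8 (2.22 and 2.03, small intestine over salivary glands). It also added calls for the NTT5-like gene, SLC36A4 and SLC1A1 (2.33, 2.51 and 2.15, liver over salivary glands). Low counts limit the brush border carriers, most of which had fewer than 50 fragments. No paired analysis was possible because each tissue has 1 library, and no replicate could be left out.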

Other observations

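Enzymes that make or use the substrates of the leading members were looked up after the members' values had been seen, and some are not reported here. Arginase 1 (ARG1), which splits arginine, a substrate of SLC7A2, had 33, 0 and 11850 fragments in the order of the report. Ornithine aminotransferase (OAT) had 567, 304 and 5981. Arginase 2 (ARG2) was spread more evenly, with 149, 602 and 418. The liver glutaminase GLS2 had an FPKM of 1.28, 5.11 and 88.2, highest in the liver like the glutamine carrier SLC38A3.

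Glutamine synthetase (GLUL, gene16231) uses glutamate, a substrate of SLC1A2. GLUL was highest in the salivary glands, where SLC1A2 was also high, and lowest in the liver. Its FPKM was 1096, 3479 and 93.5, and its scaled count was 39.1-fold higher in the salivary glands than in the liver, while SLC1A2 was level between them. The product name of this gene is glutamine synthetase-like.

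Of creatine synthesis, GATM had an FPKM of 7.13, 26.4 and 40.5 and GAMT one of 7.18, 9.51 and 2.20, beside an SLC6A8 that was lowest in the liver. Of taurine synthesis, CDO1 had an FPKM of 129, 1587 and 894 and CSAD one of 18.1, 11.2 and 37.1, whereas the taurine carrier SLC6A6 was highest in the library labelled small intestine. CDO1 was 7.13-fold higher in the liver and 12.8-fold higher in the salivary glands than in that library. For betaine, which SLC6A12 carries, CHDH had an FPKM of 12.7, 8.52 and 13.8. BHMT, the methyltransferase that uses betaine and is known as an abundant liver enzyme, had 23, 0 and 35 fragments.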
